A study of Mus musculus with 2 samples.

Results

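Myometrial smooth muscle cells of the mouse uterus were described in 2 droplet libraries of single-cell RNA sequencing. They were chosen by their counts: a barcode entered with 1000 or more unique molecular identifiers (UMIs, each standing for 1 captured transcript), 500 or more genes and mitochondrially encoded genes taking no more than 20% of its UMIs. It also needed at least 5 summed UMIs of Actg2, Cnn1, Myh11 and Des making up at least 0.2% of its UMIs, at most 1 summed UMI of the mural genes Rgs5, Notch3, Cspg4 and Kcnj8, and no UMI of Pdgfra, Ptprc or Epcam. This gave 560 of 7076 cells. The library labelled control (Prickle1 f/f) held 208 of 3490 cells and the library labelled cKO (Prickle1 f/f MiC) 352 of 3586. Each library was a pool of 3 female C57BL/6J mice aged 6 months, whose whole uteri were digested with collagenase for 5 hours. The labels do not explain MiC, do not say which cells or exons lose Prickle1, and enter wild-type as the genotype of both libraries. With 1 library per group, and the mice of a group pooled, no comparison below has a replicate error or a test. All intervals are 95% and cover counting error only, which leaves out the variation between mice and between preparations.

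The myometrium is the muscular wall of the uterus. Its smooth muscle cells contract when calcium entering through voltage-gated channels activates myosin light chain kinase, and they are coupled through connexin 43 and driven by oxytocin. Oestrogen and progesterone receptors in these cells set how excitable they are through the cycle and pregnancy. Prickle1 is a cytoplasmic protein of the planar cell polarity pathway, by which cells align within a tissue, and it is also known as an interaction partner of the transcriptional repressor REST.

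Pairs of values below are given in the order control, cKO, for the libraries so labelled, and levels are UMIs scaled to a total of 1000000 over the summed cells (counts per 1000000, CPM). The libraries held 45035801 and 34261441 UMIs over all barcodes, and their cells had median depths of 4953 and 4903 UMIs. Smooth muscle cells were shallower, with medians of 1728 and 1757 UMIs and of 864 and 926 genes, and held 546077 and 995782 UMIs in all. The libraries shared 6 cell barcodes, and none of them belonged to a smooth muscle cell. The contractile limits were reached by 2 of 766 and 7 of 1091 cells with a Ptprc UMI, a gene of leukocytes. They were also reached by 4 of 1040 and 2 of 137 cells with an Epcam UMI, a gene of epithelium. Of the barcodes removed for mitochondrial UMIs, 4 of 283 and 6 of 43 met the rest of the rule. Cells just inside the contractile limit, with 5 or 6 UMIs (22 and 69 cells), had 1906 and 1812 CPM of Acta2. A comparison group of 85 and 249 barcodes outside the limit had 424 and 501 CPM. Its barcodes need not lie close to the limit. Dcn, a fibroblast gene, stood at 1997 and 800 CPM in the first group and at 1956 and 1732 CPM in the second. In the library labelled control it was thus about as high in both groups. Because the second group is not confined to the limit, these levels do not show how sharply cells change there.

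The chosen cells carried smooth muscle genes that the rule did not use. Tagln (transgelin, an actin-binding protein) stood at 5159 and 3183 CPM, Acta2 (smooth muscle alpha-actin) at 4697 and 2108 CPM, and Mylk (myosin light chain kinase) at 2895 and 2391 CPM. Acta2 was seen in 94.7% (90.7 to 97.3) and 90.6% (87.1 to 93.5) of the cells at median depths of 1728 and 1757 UMIs. Cells with a Ptprc UMI, which should lack it, had an Acta2 UMI in 10.1% and 8.98% at median depths of 6709 and 4728 UMIs. With every cell thinned to 1000 UMIs the shares were 88.9% and 78.1% against 2.35% and 2.93%. The markers given with the rule stood at 3318 and 1429 CPM for Pcp4, 2185 and 808 CPM for Actg2, 2518 and 2383 CPM for Des, 1256 and 1238 CPM for Myh11, and 1051 and 818 CPM for Cnn1. Of these markers only Pcp4, a calmodulin-binding protein, was not used to choose the cells, so only its level bears on the label. High levels of the others follow from the rule.

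Markers of endothelium, Schwann cells and immune cells were near 0, while those of some other uterine cells were not. The 8 endothelial markers summed to 9.16 and 24.1 CPM, the 6 Schwann cell markers to 5.49 and 4.02 CPM, and the 12 immune markers to 49.4 and 49.2 CPM. Epithelial markers summed to 205 and 30.1 CPM, mural markers to 187 and 249 CPM, and mesothelial markers to 143 and 223 CPM. The immune, epithelial, mural and fibroblast lists each include genes that the rule limited or set to 0. Cdh5, Sox10, Msln and Lrrn4, defining genes of endothelium, Schwann cells and mesothelium, had no UMI in either library, which allows levels of up to 5.49 and 3.01 CPM. Wt1, counted here as mesothelial, had 59 and 219 UMIs (108 and 220 CPM) all the same. Fibroblast markers were present at a low level: the 10 genes summed to 1641 and 858 CPM, against 14361 and 14917 CPM in fibroblasts of the same libraries (cells with at least 2 Pdgfra UMIs). Decorin (Dcn) stood at 646 and 358 CPM in smooth muscle cells and at 500 and 730 CPM in barcodes with 10 to 100 UMIs, taken as empty droplets. Haemoglobin markers gave 41 and 967 UMIs, of which 28 and 957 lay in the 2 cells of each library with the most of them.

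**Figure D1:**
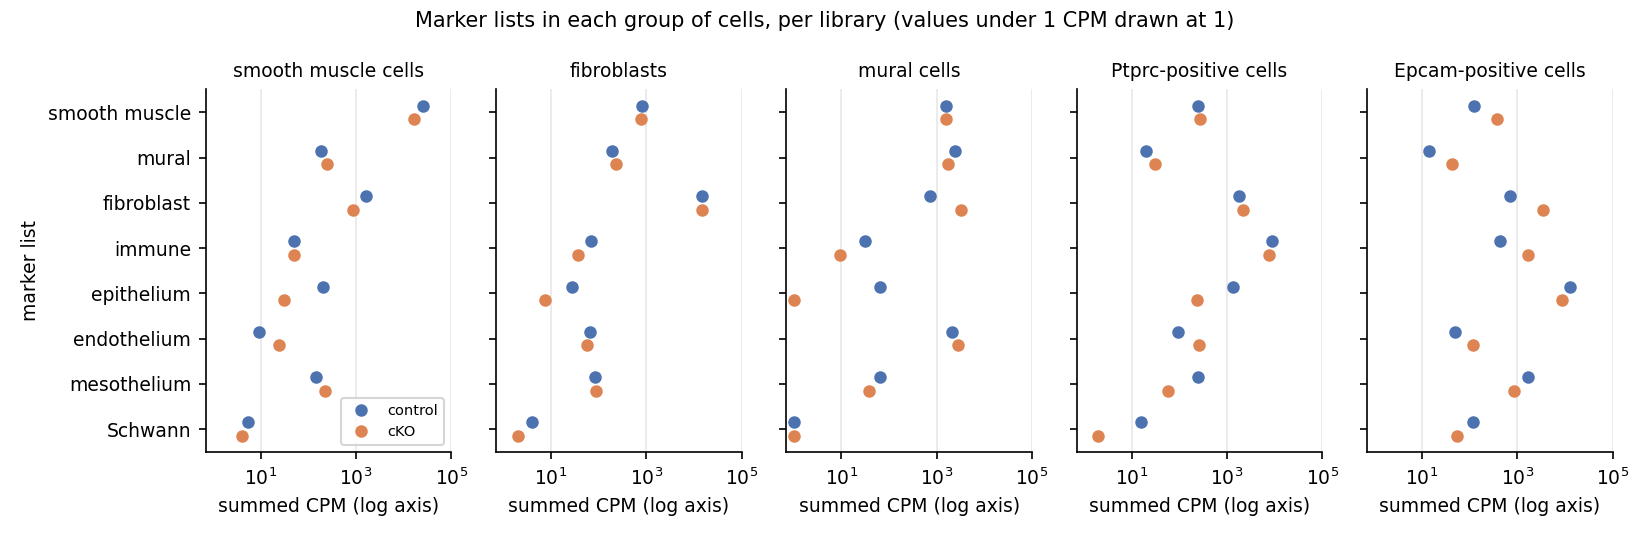
Summed level in CPM (log axis) of 8 marker lists in smooth muscle cells and in 4 other groups of cells, 1 point per library. The smooth muscle list, which includes the 4 genes that chose the cells, stands at 25623 and 16055 CPM in the smooth muscle cells. In the other groups it stands at 1571 CPM at most. The endothelial, immune and Schwann lists reach at most 49.4 CPM in the smooth muscle cells. The epithelial, mural and mesothelial lists reach at most 249 CPM there.

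Smooth muscle cells made up 5.96% (5.20 to 6.80) of the cells in the library labelled control and 9.82% (8.86 to 10.8) of those in the library labelled cKO. The log2 ratio of these shares was 0.72 (0.47 to 0.97). Among stromal cells, those with neither an Epcam nor a Ptprc UMI, the shares were 12% and 14.7% and the log2 ratio was 0.29 (0.04 to 0.55). The difference also depended on where the contractile limit was set. With limits of 10 UMIs and 1% the log2 ratio was -0.02, and with limits of 3 UMIs and 0.1% it was 0.99. At the strict limit the shares were thus close, and the difference between the libraries lay in cells of lower contractile share.

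Prickle1 (ENSMUSG00000036158, chromosome 15, 93499114 to 93595891, mm10) was rare in the smooth muscle cells of both libraries. It had 4 UMIs in 3 cells of the library labelled control (7.32 CPM, 2.00 to 18.8) and 29 UMIs in 25 cells of the library labelled cKO (29.1 CPM, 19.5 to 41.8). The level was thus not lower in the library labelled cKO, where the log2 ratio on the scale of CPM plus 5 was 1.47. Cells with a Prickle1 UMI made up 1.44% (0.298 to 4.16) and 7.10% (4.65 to 10.3), against 1.57% and 2.66% of cells with a Ptprc UMI. After thinning to 1000 UMIs the shares were 0.962% and 1.14%, so the difference was not detectable at that depth. Because the labels name no deleted exon and the kit reads transcripts from their 3-prime end, these counts may not test the deletion. The libraries are named by their labels throughout for that reason. Of these UMIs, 1 and 28 lay in cells with a UMI of the nuclear RNAs Xist, Kcnq1ot1 or Neat1, and 3 and 1 in cells without one. Its paralogue Prickle2 stood at 93.4 and 161 CPM, 0.51 above the median gene in log2.

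Within the smooth muscle cells, the contractile share of a cell, the percentage of its UMIs on Actg2, Cnn1, Myh11 and Des, ran from 0.207% to 3.24% in the library labelled control and from 0.2% to 2.01% in the library labelled cKO. The medians were 0.709% and 0.544%. Bands of this share, with borders chosen after the data were seen, held 50, 96 and 62 cells of the library labelled control in the low (under 0.5%), middle (0.5 to 1%) and high (at least 1%) bands. They held 163, 126 and 63 cells of the library labelled cKO. The low band thus took 24.0% of the cells in one library and 46.3% in the other.

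A set of genes moved with the contractile share in the same way in both libraries. Myl9 (myosin regulatory light chain) stood at 613, 2039 and 4023 CPM in the low, middle and high bands labelled control and at 350, 1099 and 2126 CPM in those labelled cKO. Tpm2 (beta-tropomyosin) went from 1084 to 5507 CPM and from 536 to 3004 CPM between the low and high bands. Mylk went from 1412 to 5491 CPM and from 1251 to 5918 CPM. Among the 12 genes with the largest such increase in both libraries were also Tagln, Acta2, Pcp4, the actin-severing protein Dstn, the creatine kinase Ckb and the respiratory chain genes Atp5e and Uqcr11. Since the same cells' smooth muscle genes set the bands, these levels are a description only.

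Nuclear RNAs led the genes that were lower in the high band. The low band was also the deepest in both libraries, and the part of depth in these levels was not tested. Xist, the X-inactivation RNA that stays on its chromosome, stood at 1744, 353 and 24.3 CPM and at 1616, 583 and 9.05 CPM in the low, middle and high bands. Malat1, an abundant RNA of nuclear speckles, stood at 54206, 18416 and 4988 CPM and at 39269, 13579 and 1176 CPM. Kcnq1ot1 and Neat1, which are also kept in the nucleus, had 0 and 5 UMIs in the 62 high-band cells labelled control, and 2 and 0 UMIs in the 63 labelled cKO. The others of the 12 genes were Ccnl1, Nr4a1, F3, Slc38a2, Itga5, Dusp1, Gadd45g and Myc, several of them immediate early or stress-induced genes. Itga5, the alpha-5 integrin of the fibronectin receptor, stood at 1706, 179 and 122 CPM and at 2386, 1437 and 244 CPM.

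**Figure D2:**
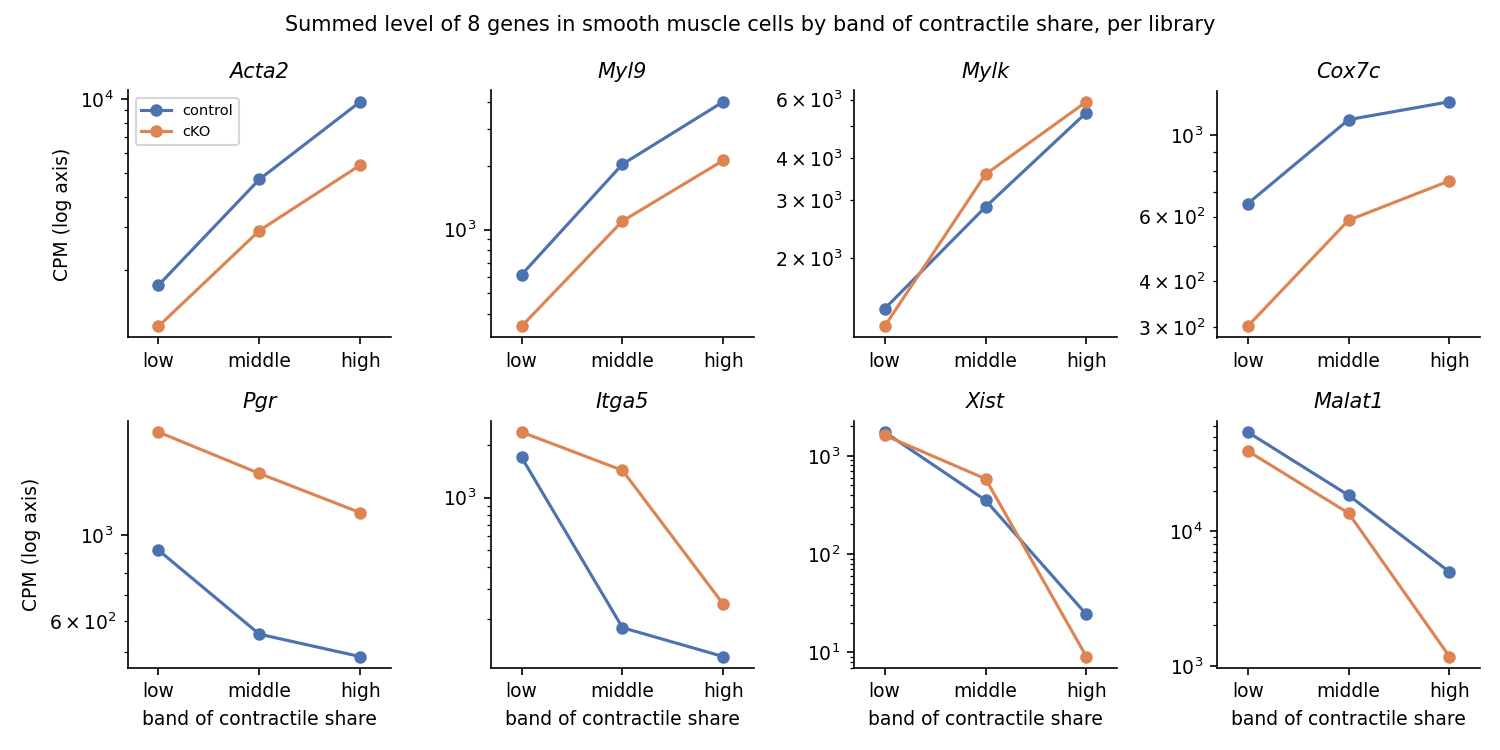
Summed level in CPM (log axis) of 8 genes in the low, middle and high bands of contractile share, with 1 line per library. Acta2, Myl9, Mylk and Cox7c stand higher in the high band and Pgr, Itga5, Xist and Malat1 lower, in both libraries, and for Pgr and Acta2 the lines of the libraries do not cross. Cells of the low band are also the deepest in UMIs.

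Most smooth muscle cells held no UMI of Xist, Kcnq1ot1 or Neat1. This was so in 172 of 208 cells (82.7%, 76.9 to 87.6) of the library labelled control and in 240 of 352 (68.2%, 63.0 to 73.0) of the library labelled cKO. The share was 7.25% and 1.50% in fibroblasts and 2.09% and 2.47% in cells with a Ptprc UMI. Those cells were deeper, so depth was matched in a further comparison. Under 2500 UMIs the share was 92.6% and 90.0% in smooth muscle cells, 13.3% and 10.6% in Ptprc-positive cells, and 50% and 30% in the 30 and 30 fibroblasts. In Epcam-positive cells of that depth it was 15.2% and 54.5% (23.4 to 83.3), in 132 and only 11 cells. With every cell thinned to 1000 UMIs it was 85.1% and 70.7% in smooth muscle cells against 13.6% and 15.1% in Ptprc-positive cells. At matched depth, cells without these RNAs were thus more frequent among smooth muscle cells than among Ptprc-positive cells. The summed levels did not all show this: Malat1 stood at 29174 and 28185 CPM in smooth muscle cells against 23576 and 21547 CPM in Ptprc-positive cells, and at 5915 and 5730 CPM in the smooth muscle cells under 2500 UMIs and 45619 and 40826 CPM in the deeper ones. Between the libraries the share differed in the deeper cells (57.6% and 22.1% at 2500 UMIs or more), while under 2500 UMIs the intervals overlapped. The median share of mitochondrial UMIs was 2.60% and 1.83%, against 2.06% and 2.4% in fibroblasts, so it was higher in smooth muscle cells of the library labelled control and lower in those of the other. The part of this difference in the comparisons below was not tested, and levels are therefore also given separately for cells with a UMI of these nuclear RNAs (36 and 112 cells) and without one (172 and 240 cells). This split was chosen after the data were seen. Cells with such a UMI were deeper, with medians of 3826 and 4299 UMIs against 1566 and 1444 in cells without. More of them lay in the low band of contractile share (58.3% and 82.1% against 16.9% and 29.6%). The 2 strata are thus not alike in depth or contractile share, nor is the same stratum alike in the 2 libraries.

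**Figure D3:**
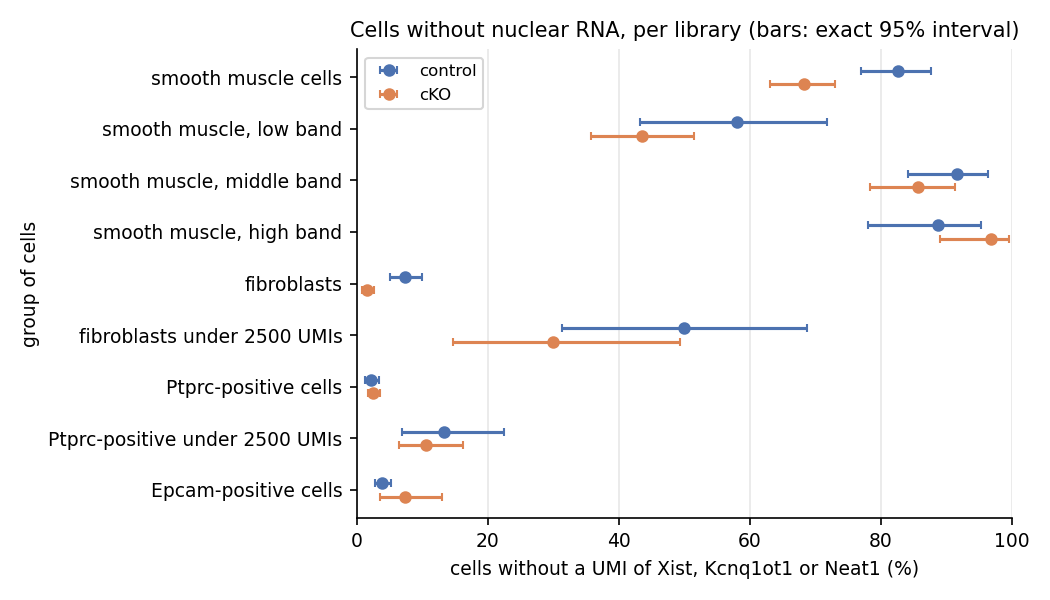
Percentage of cells without a UMI of Xist, Kcnq1ot1 or Neat1 in 9 groups of cells, 1 point per library with the exact 95% interval. Smooth muscle cells lie at 82.7% and 68.2%, above fibroblasts, Ptprc-positive cells and Epcam-positive cells. They also lie above the fibroblasts and Ptprc-positive cells under 2500 UMIs. Smooth muscle cells and Epcam-positive cells under 2500 UMIs are not drawn.

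Levels in the smooth muscle cells were next compared between the libraries. For each gene the CPM in the library labelled cKO was divided by that in the other library, after adding 5 CPM to each, and put on the log2 scale, which understates the change of low genes. Over 3637 genes with a mean of at least 50 CPM its median was 0.24, so ratios are given as the distance from that median gene. A gene under 50 CPM in 1 library thus passed this filter only through the other, where it was higher. A gene counted as higher or lower at 1.5-fold or more from the median gene. By this limit 497 genes (13.7%) were higher and 649 (17.8%) lower in the library labelled cKO. The median over all genes was 0.09 in fibroblasts, 0.16 in Ptprc-positive cells and 0.13 in Epcam-positive cells. Counts of called genes in each list below are to be read against these 13.7% and 17.8%.

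Myl9, Tpm2 and Acta2, abundant genes of the contractile filaments, were lower in the library labelled cKO, while most contractile genes passed neither limit. Of 33 tested genes of the list, 9 were lower and 5 higher, the latter a share near that over all genes, with a median 0.15 below the median gene in log2 (-0.15). The lowest were Myl9 (1937 and 747 CPM, -1.61), Tpm2 (2707 and 1108 CPM, -1.53) and Acta2 (4697 and 2108 CPM, -1.40). Tagln lay at -0.94, Myl6, the essential light chain, at -0.82, and Tpm1 at -0.75. Among the higher genes were Myocd (45.8 and 91.4 CPM, 0.68), the coactivator that drives smooth muscle genes together with Srf, the actin crosslinker Actn1 (469 and 879 CPM, 0.65), vinculin (Vcl, 198 and 364 CPM, 0.62) and tensin (Tns1, 211 and 386 CPM, 0.61). Caldesmon (Cald1, 1068 and 1180 CPM) and Csrp1 (1375 and 1466 CPM) lay within the limit at -0.10 and -0.15. Of the rule's own genes, Actg2 lay at -1.67, while Cnn1, Des and Myh11 lay at -0.60, -0.32 and -0.27. A floor on the sum of these genes chose the cells, so their ratios are a description only.

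The same genes were also compared within cells with and without nuclear RNA. Acta2 stood at 1861 and 1119 CPM in cells with a nuclear RNA UMI and at 6592 and 3546 CPM in cells without one, so the library labelled cKO had the lower level in both. Myl9 stood at 576 and 247 CPM and at 2847 and 1474 CPM. Of the higher genes, Actn1 stood at 562 and 1007 CPM and at 406 and 693 CPM, and Vcl at 311 and 527 CPM and at 122 and 126 CPM. Tagln stood at 7355 and 6255 CPM in the cells without nuclear RNA, and Mylk at 3922 and 4283 CPM, the opposite order to its level over all cells. Carmn, a long non-coding RNA of smooth muscle cells, had 8 and 92 UMIs (2.06 from the median gene), all of them in cells with nuclear RNA.

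Serum response factor and myocardin act on smooth muscle promoters through the CArG box, a run of A and T bases between a pair of C and a pair of G. In the RefSeq promoter table (GRCm38.p6, from 250 bases before to 50 after each start that RefSeq lists, some genes having several), 38 of the 45 genes of the contractile and smooth muscle lists were matched, and 9 of them (23.7%) held at least 1 box on either strand, against 488 of 27025 genes (1.81%) in all. Sites of genes from both directions of the comparison are shown, on the gene's strand, with the box in capitals and 10 bases on either side, to let the reader set the box beside the levels.
Myl9: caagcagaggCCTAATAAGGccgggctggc
Cnn2: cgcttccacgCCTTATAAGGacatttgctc
Vcl: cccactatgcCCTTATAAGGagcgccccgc
Dmd: catgggcagtCCTATTATGGgaaagcaact
The sites lie at chr2:156775293-156775322 (Myl9), chr10:79988534-79988563 (Cnn2), chr14:20929161-20929190 (Vcl) and chrX:82948762-82948791 (Dmd), and their boxes begin 161, 56, 227 and 98 bases before the start used in the RefSeq table, which for Myl9 and Cnn2 is not the annotated gene start. Genes with a box went both ways: Myl9 (-1.61) and Myl6 (-0.82) were lower in the library labelled cKO, and Vcl (0.62) was higher. Cnn2 (-0.57), Filip1l (-0.52), Dmd (0.57) and Fhl1 (0.41) lay within the limit. Ldb3 and Srf, which also hold a box, did not reach the mean CPM to be tested. Cnn2 and Vcl carry the same box. Acta2, Tagln and Tpm2 held none in this window, which says only that these letters are not in it.

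Excitability genes, which set membrane potential, calcium entry and the response to oxytocin, were more often higher than lower. Of 17 tested, 5 were higher and 1 lower, with a median of 0.09. That median was -0.03 in cells with nuclear RNA and -0.15 in cells of 1000 to 2000 UMIs. Oxtr, the oxytocin receptor, stood at 330 and 592 CPM (0.59). It was detected in 36.5% (30.0 to 43.5) and 45.2% (39.9 to 50.5) of cells, and in 20.7% and 30.1% after thinning, against 0.522% and 1.37% of thinned Ptprc-positive cells. Also higher were Prkg1, the kinase activated by cyclic GMP (29.3 and 71.3 CPM, 0.91), Cacna1c, the pore of the L-type calcium channel (51.3 and 110 CPM, 0.79) and junctophilin 2 (Jph2, 137 and 255 CPM, 0.62), which ties the plasma membrane to calcium stores. Of these, Prkg1 passed the filter on mean CPM only through the library labelled cKO. Pde5a, the enzyme that breaks down cyclic GMP, was lower over all cells (110 and 74.3 CPM, -0.78, with 20 of the 60 control UMIs in 1 cell), but stood at 61.1 and 113 CPM in cells without nuclear RNA and at 183 and 47.5 CPM in cells with it. Connexin 43 (Gja1, 353 and 560 CPM, 0.41) and the calcium pump Atp2a2 (245 and 298 CPM, 0.03) stayed within the limit. Oxtr was higher in cells with nuclear RNA (380 and 720 CPM) and in those without (296 and 407 CPM). For Cacna1c the difference lay in cells with nuclear RNA: in cells without, it stood at 18.3 and 19.7 CPM.

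Steroid receptor genes showed a higher progesterone receptor. Pgr stood at 678 and 1652 CPM, 1.03 (0.88 to 1.21) above the median gene. A Pgr UMI was found in 55.3% (48.3 to 62.2) and 71.3% (66.3 to 76.0) of cells, and in 39.4% and 58.2% after thinning, against 1.96% and 3.85% of thinned Ptprc-positive cells. In every band the Pgr level was higher for cKO than for control, by label (913 and 1835, 556 and 1437, 487 and 1140 CPM). It was also higher with nuclear RNA (956 and 2015 CPM) and without (492 and 1124 CPM). Of 10 tested genes of the list, 3 were higher and 1 lower, with a median of 0.13. Greb1, a gene induced by oestrogen, stood at 201 and 552 CPM (1.19), and Nrip1, a corepressor of nuclear receptors, at 172 and 386 CPM (0.90). Igf1 was lower (602 and 340 CPM, -1.06). Esr1, the oestrogen receptor alpha, did not move past the limit (304 and 309 CPM, -0.22).

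In fibroblasts of the same libraries Pgr stood at 521 and 793 CPM and Oxtr at 285 and 314 CPM. The steroid list's median in fibroblasts was 0.36 above their median gene, against 0.13 in smooth muscle cells, and that difference was not tested.

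Hox genes and their partners give the reproductive tract its position along the body. Of 6 tested genes 2 were higher and none lower, with a median of 0.40. One of the higher genes was Emx2, a homeobox gene of the urogenital tract, at 194 and 369 CPM (0.66). Hoxa10 (91.6 and 130 CPM, 0.23), Hoxd11 (123 and 122 CPM, -0.26) and Meis2 (372 and 448 CPM, 0.02) lay within the limit. Emx2 had the higher level in the library labelled cKO with nuclear RNA (284 and 490 CPM) and without (134 and 192 CPM).

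Among planar cell polarity genes, which include the Wnt ligands and receptors that feed the pathway, 3 of 10 tested were higher and none lower, with a median of 0.40. These were the ligand Wnt4 (22.0 and 109 CPM, 1.84), the receptor Fzd7 (27.5 and 112 CPM, 1.61) and the receptor kinase Ror2 (145 and 313 CPM, 0.84). Wnt4 and Fzd7 passed the filter on mean CPM only through the library labelled cKO. The list's count and median therefore follow in part from that filter. Wnt4 rested on 12 UMIs in 8 cells and 109 UMIs in 58 cells, and empty droplets held it at 24.3 and 26.9 CPM, close to its level in the smooth muscle cells of the library labelled control. The kinase Rock2 (553 and 892 CPM, 0.44) and Rhoa (407 and 404 CPM, -0.25), which act on the cytoskeleton below the pathway, stayed within the limit. Fzd7 stood at 45.7 and 175 CPM with nuclear RNA and at 15.3 and 22.2 CPM without. With contractile limits of 10 UMIs and 1% the order of the list turned: its median was -0.32, Fzd7 lay at -0.75 and Ror2 at -0.25. Among the 7 tested REST corepressor genes, Rest itself (95.2 and 181 CPM, 0.65) and Rcor1, which codes for CoREST (58.6 and 115 CPM, 0.68), were higher and none was lower.

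Adhesion genes were mostly below the median gene, with 1 of 16 tested higher and 3 lower and a median of -0.25. Itga5 was the one that was higher (754 and 1895 CPM, 1.08). The beta-1 integrin it pairs with, Itgb1, stood at 571 and 487 CPM (-0.47), and the cadherin Cdh11 was lower (121 and 79.3 CPM, -0.82). Itga5 was among the genes that moved with the contractile share, and its difference remained in cells with nuclear RNA (1696 and 3019 CPM) and without (125 and 261 CPM). Fibroblasts had 712 and 618 CPM of Itga5, so there the order of the libraries was the opposite.

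Interstitial matrix genes were lower in the library labelled cKO. Of 22 tested, 15 were lower and 1 higher, with a median of -0.77, against 0.16 in fibroblasts. Lowest were lumican (Lum, 218 and 60.3 CPM, -2.02) and asporin (Aspn, 211 and 74.3 CPM, -1.69), both small leucine-rich proteoglycans, and matrix Gla protein (Mgp, 104 and 39.2 CPM, -1.55). Of the 57 Mgp UMIs of the library labelled control 24 lay in 1 cell, and in cells without nuclear RNA Mgp stood at 42.8 and 41.9 CPM. The fibrillar collagen genes Col1a2 (297 and 134 CPM, -1.37) and Col3a1 (137 and 71.3 CPM, -1.14) and Dcn (-1.09) were also lower. Periostin (Postn, 234 and 471 CPM, 0.75) was the higher one, and thrombospondin 1 (Thbs1, 1009 and 1625 CPM, 0.44) lay within the limit.

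Fibroblast markers moved with this list. All 6 tested fibroblast markers were lower, and 4 of the named matrix genes, Lum, Dcn, Col1a2 and Col3a1, are among them. In empty droplets, which carry free RNA, these 4 were not lower in the library labelled cKO: Lum stood at 170 and 199 CPM, Dcn at 500 and 730, Col1a2 at 196 and 298, and Col3a1 at 80.9 and 167. The direction of Lum held with nuclear RNA (210 and 44.1 CPM) and without (223 and 83.8 CPM). Col1a2 stood at 169 and 164 CPM with nuclear RNA and at 382 and 88.7 CPM without, so its difference lay in the cells without. Whether fibroblast RNA in some of these cells takes part in the list's difference was not tested. The list's summed level, in which Thbs1 and Postn weigh heavily, was 6514 and 5800 CPM.

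Genes of energy metabolism and translation were lower across nearly whole lists. Of 78 tested genes of oxidative phosphorylation coded in the nucleus, 67 were lower and none higher, with a median of -1.09 and a summed level of 22237 and 12357 CPM. Ndufv3 (168 and 46.2 CPM, -2.01) and Ndufa13 (271 and 80.3 CPM, -1.94) of complex I and Cox5b of complex IV (284 and 85.4 CPM, -1.92) were lowest, and Cox7c was the most abundant of these examples (958 and 428 CPM, -1.40). Of the 13 genes coded by mitochondrial DNA 12 were lower (35389 and 23852 CPM summed, median -0.84). Glycolysis showed 7 lower of 10 tested and none higher, with Eno1 (117 and 44.2 CPM, -1.56) and Gapdh (996 and 487 CPM, -1.27) lowest. Ribosomal protein genes were lower in 74 of 77 cases (173723 and 103998 CPM summed, median -1.0), among them Rpl41 (7475 and 4245 CPM, -1.06) and Rps12 (5990 and 3352 CPM, -1.08).

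These lists also moved with nuclear RNA within each library. In cells with it, oxidative phosphorylation genes summed to 12731 and 8007 CPM, and in cells without it to 28587 and 18683 CPM. Ribosomal protein genes summed to 95859 and 59932 CPM and to 225733 and 168071 CPM. The library labelled cKO was therefore lower in each stratum, and the cells richer in nuclear RNA, of which it held more, were lower within each library. These strata also differed in depth and contractile share. The median of the oxidative phosphorylation list was -0.85 in cells with nuclear RNA and -0.80 in cells without, and that of the ribosomal list -0.84 and -0.64.

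Ribosomal protein genes were also lower in fibroblasts and Ptprc-positive cells and close in Epcam-positive cells. They summed to 141942 and 107607 CPM in fibroblasts, 116439 and 96590 CPM in Ptprc-positive cells, and the list medians there were -0.53 and -0.46. In Epcam-positive cells they summed to 136270 and 134082 CPM, with a median of -0.17. Oxidative phosphorylation genes, by contrast, summed to 11817 and 11857 CPM in fibroblasts and 11096 and 10618 CPM in Ptprc-positive cells, with medians of -0.07 and -0.22. In Epcam-positive cells they summed to 12198 and 15512 CPM, with a median of 0.31. Glycolysis genes were lower in Ptprc-positive cells (3604 and 2569 CPM summed, median -0.66) and in Epcam-positive cells (5933 and 2922 CPM, -1.18). In fibroblasts they summed to 2855 and 2771 CPM, with a median of -0.15. The gaps between the cell types were not tested.

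**Figure D4:**
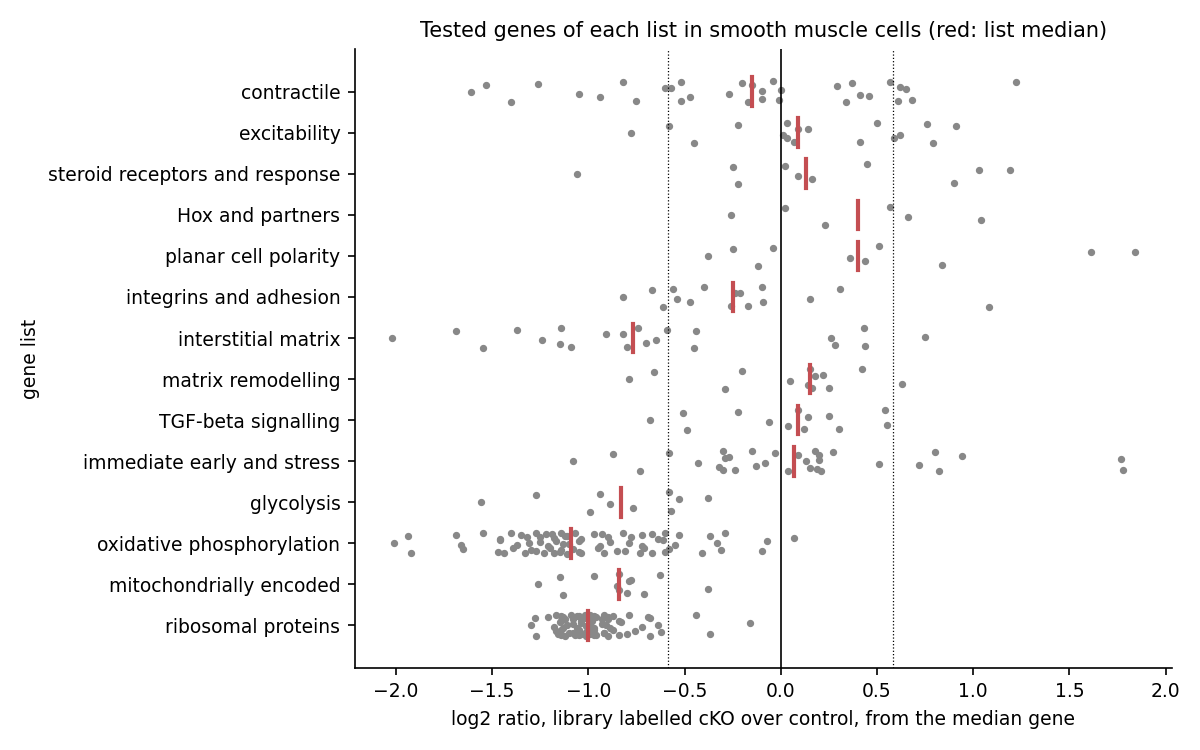
Log2 ratio between the libraries (cKO over control, by label), from the median gene, for each tested gene of 14 lists in smooth muscle cells, with the list median in red and the 1.5-fold limits dotted. The oxidative phosphorylation, ribosomal and mitochondrially encoded points lie almost wholly left of 0 (medians -1.09, -1.0 and -0.84), and the steroid, Hox and polarity lists have their highest points right of the upper limit.

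Immediate early and stress genes, which the digestion itself can induce, went both ways. Of 32 tested, 6 were higher and 3 lower, with a median of 0.07. Egr1, an early-response transcription factor, was lower (1862 and 1041 CPM, -1.08), and Cebpb (1264 and 2614 CPM, 0.80), Myc (377 and 867 CPM, 0.94) and Fosl2 (405 and 853 CPM, 0.82) were higher. The heat shock genes Hspa1a (49.4 and 217 CPM, 1.78) and Hspb1 (632 and 493 CPM, -0.60) had opposite directions. Of the 715 UMIs of Hspa1b in the library labelled cKO (718 CPM, against 174), 250 came from 1 cell, as did 113 of the 216 UMIs of Hspa1a.

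By the size of the ratio alone, the genes outside the lists with the highest values were Nr1d1, a repressor of the circadian clock (14.6 and 120.0 CPM, 2.42), Carmn (2.06), Medag (27.5 and 129 CPM, 1.80) and Gm49797 (18.3 and 87.4 CPM, 1.74). All of these passed the filter on mean CPM only through the library labelled cKO. Of the 119 Nr1d1 UMIs in the library labelled cKO, 38 came from 1 cell of 46. The haemoglobin genes Hba-a1, Hba-a2 and Hbb-bs (3.37, 3.37 and 2.58) rested on the 2 cells already named. Without these cells they lay at -1.04, -0.36 and -1.21. Among the 10 lowest were Prap1 (678 and 38.2 CPM, -4.23), Sprr1a (98.9 and 10.0 CPM, -3.03) and Sprr2f (110 and 16.1 CPM, -2.69), genes known from epithelium. Single cells held 266 of the 370 Prap1 UMIs, 42 of the 60 Sprr2f UMIs and 18 of the 54 Sprr1a UMIs of the library labelled control, and empty droplets held Prap1 at 11317 and 249 CPM and Sprr2f at 1647 and 24.2 CPM. The interferon-inducible genes Mndal (93.4 and 10.0 CPM, -2.95) and Ifi203 (114 and 20.1 CPM, -2.49), Plac8 (251 and 61.3 CPM, -2.19) and the chemokine Cx3cl1 (89.7 and 24.1 CPM, -1.95) were also among the 10 lowest. Of the low genes named in this paragraph, all but Plac8 passed the filter on mean CPM only through the library labelled control. Mndal and Ifi203 overlap on chromosome 1, so their reads may not be told apart. Lower interferon genes were not particular to the smooth muscle cells. A list of such genes, which holds neither of them, had medians of -2.18 in fibroblasts, -1.93 in Ptprc-positive cells and -2.06 in Epcam-positive cells. In smooth muscle cells its median was -0.42, over 4 tested genes.

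**Figure D5:**
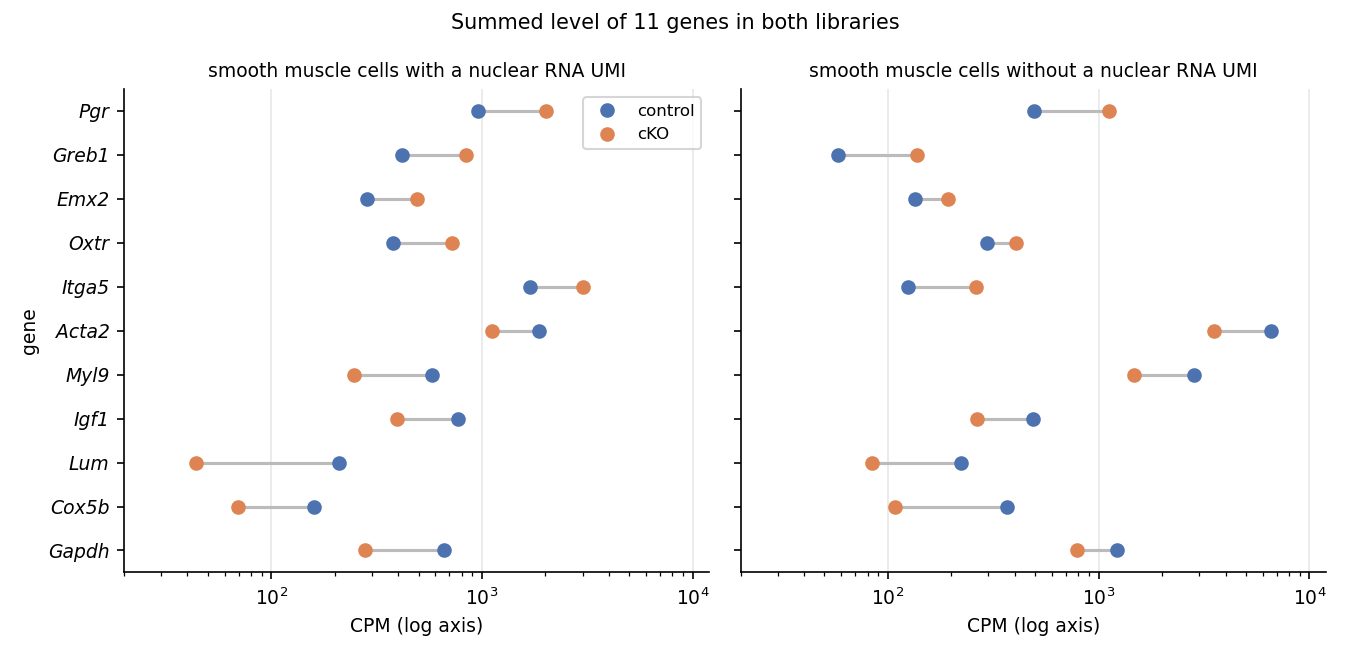
Summed level in CPM (log axis) of 11 genes in smooth muscle cells with a UMI of Xist, Kcnq1ot1 or Neat1 (36 and 112 cells) and without one (172 and 240 cells), joined across the libraries. Pgr, Greb1, Emx2, Oxtr and Itga5 stand higher in the library labelled cKO in both panels and Acta2, Myl9, Igf1, Lum, Cox5b and Gapdh lower.

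Set against fibroblasts within each library, the genes outside the rule that separated smooth muscle cells most were Pcp4 (log2 ratio 7.36 and 6.28), Mylk (6.16 and 5.48), Acta2 (6.59 and 5.31) and Pcp4l1 (5.83 and 5.22). Pcp4l1, a relative of Pcp4, stood at 494 and 492 CPM against 3.77 and 8.34 CPM. Further down were the heat shock protein Hspb7 (4.34 and 5.01), the kinase Pak3 (4.04 and 4.52) and the transcript 4930523C07Rik (3.92 and 4.33). Against mural cells, here cells with at least 3 summed UMIs of the mural genes, Tagln, Myl9, Tpm2, Pcp4, Mylk and Acta2 led. Tagln stood at 5159 and 3183 CPM against 159 and 239, and Acta2 at 4697 and 2108 CPM against 206 and 230. Next came Ogn (507 and 358 CPM against 47.6 and 38.3) and Ptn (361 and 353 CPM against 31.7 and 38.3). Tlnrd1 (471 and 920 CPM against 63.5 and 105) and Oxtr (330 and 592 CPM against 0 and 86.2) followed. Only 9 and 15 mural cells were available, and they also carried endothelial markers at 2079 and 2854 CPM, beside mural markers at 2476 and 1762 CPM. With Tagln and Acta2 this low, they may not stand for the contractile cells of vessels. These values are a description, since the cells were chosen on smooth muscle genes that travel with most of those named.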

How the data were processed

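Single-cell suspensions of whole uterus were sequenced with 10x 3-prime v3 chemistry. The values are raw UMI counts per gene and barcode, deposited by the authors as unfiltered matrices. The file headers name Cell Ranger 4, while the submitters' processing notes name Cell Ranger 6.1.1 and mm10; the annotation release is not given in the sources used here. Cells and smooth muscle cells were chosen by the rule given above, and both this rule and the gene lists were chosen with earlier results of these data known. UMIs were summed over cells, scaled to CPM, and compared as log2 ratios with 5 CPM added. Genes with a mean CPM of at least 50 were tested against the 1.5-fold limit. With 1 library per group no statistical test was run. Intervals are exact Poisson for levels, exact Clopper-Pearson for shares and exact conditional for ratios. Member depth, with medians of 1728 and 1757 UMIs, limits genes at low CPM. Cells were thinned to 1000 UMIs for shares. Barcodes of 10 to 100 UMIs served as empty droplets. No doublet caller was run; an alternative left out the 5% deepest cells. The genes named are Prickle1, the 5 markers, the 10 highest and 10 lowest ratios with an interval on 1 side of the median, the 3 farthest and 2 most abundant of each list, and the 10 that most separated these cells from fibroblasts and from mural cells. A few genes that this rule names are not reported here. Other genes named were chosen after their values were seen. Gene IDs matched GENCODE vM21 coordinates for 32158 of 32285. Promoter sequences are from RefSeq. The method was tested on simulated data. Python 3.11.15, numpy 2.4.6, pandas 2.3.3, scipy 1.17.1 and matplotlib 3.10.9 were used.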

Additional observations from a re-analysis of the deposited data

Results flagged for a closer look

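In 6 lists the median distance from the median gene had one sign in smooth muscle cells and the other in fibroblasts of the same libraries; the difference between the cell types was not tested in any of them. The contractile list stood at -0.15 against 0.25, basement membrane genes at -0.19 against 0.16, and integrin and adhesion genes at -0.25 against 0.11. The widest gaps were in the mitochondrially encoded genes (-0.84 against 0.12), which the cell filter capped, and the interstitial matrix genes (-0.77 against 0.16). Immediate early and dissociation genes stood at 0.07 against -0.08.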

How the results depend on the processing

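Of 384 values for the share, Prickle1, counts and lists under the alternatives, 338 stayed within the tolerance, 42 moved and 4 crossed 0 where the reported value's interval did not include it. Counting every change of sign, there were 23 among 342 values for the share, Prickle1 and lists and 86 among 2029 for named genes, 24 of them in genes past the 1.5-fold limit. The causes were not tested. No paired analysis was possible because each group is 1 library. The splits by nuclear RNA and contractile band, the narrower ambient profile and the removal of 2 erythroid-rich cells were chosen after seeing the data. Limits of 10 UMIs and 1% gave a log2 share ratio of -0.02, 777 higher genes, and list medians of -0.67 (oxidative phosphorylation), -0.56 (ribosomal) and -0.32 (planar cell polarity); Prickle1 had no UMI there. The signs of Adamts2 (-2.62), Cavin2 (0.76), Fzd7 (-0.75), Hba-a1 (-4.51), Hba-a2 (-2.90), Hbb-bs (-3.23), Inhba (0.40), Pde5a (1.04), Prap1 (1.10), Ror2 (-0.25) and Sprr1a (3.18) turned. Limits of 3 UMIs and 0.1% gave a share ratio of 0.99 and a ribosomal median of -1.14. The share ratio was 0.29 among stromal cells and 1.00 among stromal cells with nuclear RNA. The ribosomal median was -0.96 with a pseudocount of 20 CPM, and -0.87 both after thinning and with cells weighted equally. Thinning put Prickle1 at 0.16. Equal weights gave -0.69 for basement membrane and 0.26 for immediate early genes. Subtracting ambient RNA gave -9.17 for mitochondrially encoded, -1.09 for ribosomal and -1.17 for interstitial matrix genes, and -1.87 for mitochondrially encoded genes with the narrower profile. The first setting, scaled also with haemoglobin markers, took 4.43% and 24.0% of the UMIs as ambient. The narrower one, without these markers, took 5.67% and 6.16%. Of the 967 haemoglobin UMIs labelled cKO, 957 lay in 2 cells, so the values of the first setting lean on those cells. In cells of 1000 to 2000 UMIs Prickle1 lay at 0.13 and the list medians were -0.15 (excitability), -0.76 (oxidative phosphorylation), -0.63 (mitochondrially encoded), -0.55 (ribosomal), -0.39 (matrix remodelling) and 0.27 (immediate early). The signs of Adamts2 (-0.37), Cavin2 (0.35), Egr1 (0.38), Hspa1a (-1.91) and Pde5a (0.66) turned there. Over 2000 UMIs the oxidative phosphorylation and ribosomal medians were -1.25 and -1.24, and without the 5% deepest cells -1.22 and -1.13, with immediate early genes at 0.29. No filter on mean CPM gave 1852 higher and 3222 lower genes, and a mean of at least 200 CPM gave 121 and 203. In cells with nuclear RNA the medians were -0.03 (excitability), -0.85 (oxidative phosphorylation), -0.84 (ribosomal) and -0.43 (interstitial matrix). In cells without it Prickle1 lay at -0.92, and the medians were -0.80 (oxidative phosphorylation), -0.38 (mitochondrially encoded) and -0.64 (ribosomal). The signs of Adamts2 (-0.86), Cacna1c (-0.09), Hspa1a (-0.27) and Pde5a (0.67) turned. Averaged within contractile bands they were -0.82, -0.70 and -0.76, and Adamts2 lay at -0.11. Without the erythroid-rich cells Hba-a1, Hba-a2 and Hbb-bs lay at -1.04, -0.36 and -1.21. Median of ratios scaling moved the median of all genes from 0.24 to 0.12.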
